A study of Drosophila melanogaster with 4 samples.

Results

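The narrow weak regions were 1105 of the 5074 enriched regions in the authors' list for the ChIP replicate set, named the combined list below. They were chosen by their values in that list, a score above 0 and under 0.7 and a width under 3 kb. Regions on heterochromatin scaffolds and on the unplaced sequence U were left out, so the members lay on the 6 chromosome arms, which held 4830 enriched regions. They came from ChIP-seq of RNA polymerase II phosphorylated on serine 5 of its C-terminal repeats, in untreated Kc167 cells, a female Drosophila melanogaster line of embryonic origin with the genotype se/e. The series held 2 ChIP libraries, and 2 input libraries of the same cells that had no region list among the files used. The labels do not say whether the replicates were separate cultures, so the spread between them may be technical. The lists give positions and scores but no genes, so the cell line was not checked against marker genes. They give no read counts either, and sequencing depth is unknown.

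RNA polymerase II carries a tail of repeated heptads on its largest subunit. The kinase of the general factor TFIIH phosphorylates serine 5 of these repeats as the enzyme leaves the promoter, and in Drosophila much of the polymerase in this form can stand paused just downstream of the start site. Polymerase has also been mapped at enhancers, usually at lower levels than at active promoters. Which of these elements the narrow weak regions hold was not measured, since all positions are those of FlyBase release 5, the gene table at hand belongs to release 6, and coordinates were not converted. Single regions are therefore given by position, with no gene.

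The members made up 22.9% of the enriched regions on the arms, but they covered 2.00 Mb, which was 10.1% of the enriched arm bases and 1.66% of the arms. The authors named no scale for the score. It served to rank and filter regions within a list, with the same limit of 0.7 in each list, and scores of different lists are set side by side as deposited. Whether the lists share a scale is not known, so a gap between lists is in score units and not a fold. Since score and width in the combined list were what the members were chosen by, both are described and not tested. The median score was 0.35, with quartiles of 0.24 and 0.46, against a median of 1.37 for all arm regions. The median width was 1933 bp with quartiles of 1479 and 2063 bp. Of the other arm regions, 1489 were narrow and scored at least 0.7 (narrow stronger regions), 103 were weak and at least 3 kb wide (wide weak regions) and 2133 were stronger and wide.

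The limits of the rule fell within a continuous range of values. The members just under the score limit lay on X at 7994932 to 7997130 (0.6996), on 3R at 18882140 to 18884284 (0.6982) and on 3L at 8946024 to 8948452 (0.6981). The narrow regions just over it lay on 2L at 10528302 to 10530466 (0.7002), on 2R at 4307626 to 4309760 (0.7008) and on 2R at 14833844 to 14835902 (0.7040). The scores of these 6 regions differed by less than 0.01. The widest members, chosen after their values were seen, spanned 2989 and 2965 bp, and the narrowest of the wide weak regions spanned 3013 and 3057 bp.

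Both replicate lists also held a narrow weak class. By the same rule, replicate 1 had 887 and replicate 2 had 847 of them, a mean of 867 ± 28.3 (SD, n = 2). They made up 18.5% ± 0.448 of the arm regions (SD, n = 2). Their median widths were 1932 and 1943 bp, close to the combined 1933 bp. Their lower quartiles, 1735 and 1686 bp, lay above the 1479 bp of the combined list. The narrowest enriched region of any score was 1304 bp in replicate 1 and 1303 bp in replicate 2, against 1001 bp in the combined list, so the shortest combined members had no counterpart of their own width in the replicates.

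A smaller share of the members than of the enriched regions at large was found in the replicate lists. A region counted as found when it overlapped an enriched region of the replicate by at least 1 bp. Of the 1105 members, 638 (57.7%) were found in both replicates, 161 (14.6%) in 1 replicate and 306 (27.7%) in neither. Over all 4830 arm regions, 88.2% were found in both and 7.95% in neither. Replicate 1 held 706 of the members (63.9%) and replicate 2 held 731 (66.2%), and among the members found in 1 replicate, 68 were in replicate 1 and 93 in replicate 2. The narrow stronger regions were found in both replicates in 1394 of 1489 cases (93.6%), and the wide weak regions in 96 of 103 (93.2%). All 3 lists are treated as coming from the same 2 libraries, and recovery varied with the score and width that chose the members, so these shares are a description.

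Recovery went with width. None of the 194 members under 1303 bp was found in both replicates and 183 of them (94.3%) were in neither. From 1303 bp to under 1700 bp, 24 of 179 members (13.4%) were found in both. The share was 74.8% for 310 members from 1700 bp to under 2000 bp and 92.5% for 374 members from 2000 bp to under 2500 bp, while 36 of the 48 members from 2500 bp to under 3000 bp were found in both. Recovery of narrow stronger regions went with width too, but along another course. Found in both replicates were 0 of 58 under 1303 bp and 2 of 19 from there to under 1700 bp. From 1700 bp to under 2000 bp it was 1 of 7, against 74.8% of the members. From 2000 bp to under 2500 bp it was 980 of 993 (98.7%), and from there to under 3000 bp 411 of 412 (99.8%). The classes differed in how their widths were spread. Members under 2000 bp numbered 683 of 1105, and narrow stronger regions under 2000 bp 84 of 1489. At 2000 bp and above, 382 of 422 members (90.5%) and 1391 of 1405 narrow stronger regions (99.0%) were found in both.

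**Figure D1:**
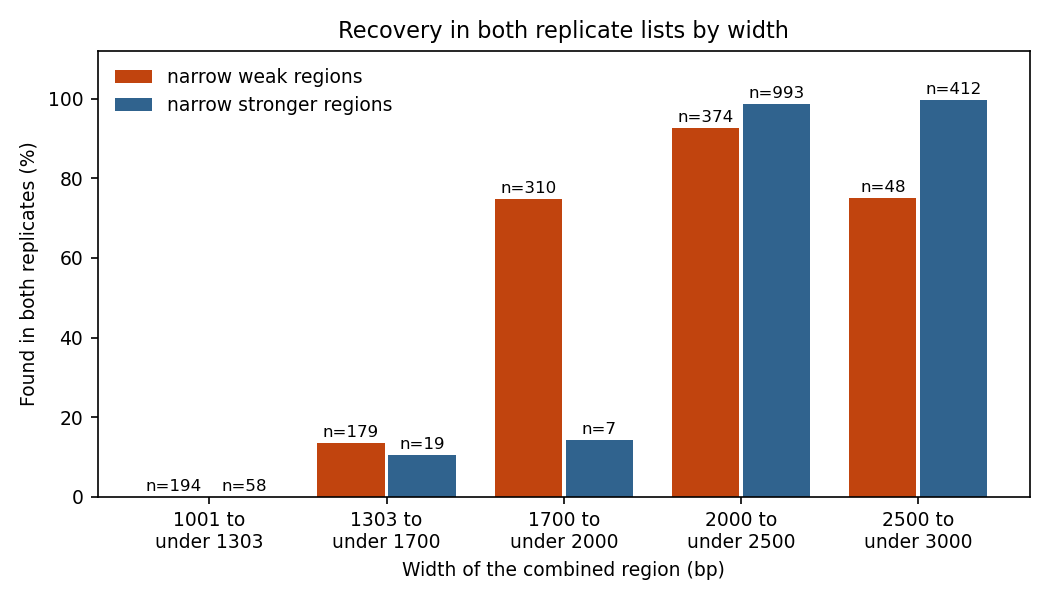
Percent of combined regions found in both replicate lists (vertical axis) by width in bp (horizontal axis), for narrow weak and narrow stronger regions, with the number of regions over each bar. Recovery is 0 under 1303 bp in both classes and is 92.5% for narrow weak and 98.7% for narrow stronger regions from 2000 bp to under 2500 bp.

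Recovery did not rise steadily with score within the members. It was 53.9% in the 217 members scoring under 0.2, then 41.5% in 195 members from 0.2 to 0.3 and 41.9% in 277 from 0.3 to 0.4. It was 67.5% in 194 members from 0.4 to 0.5, 82.5% in 114 from 0.5 to 0.6 and 91.7% in 108 from 0.6 to 0.7. The low middle coincided with the shortest regions, since 137 of the 194 members under 1303 bp scored from 0.2 to 0.4. With those short regions left out, a choice made after the values were seen, the shares from the lowest to the highest score range were 58.5%, 59.6%, 58.3%, 77.5%, 91.3% and 95.2%. Within a width class the course was another one, and some score ranges held few regions. Among members from 1700 bp to under 2000 bp, 104 of 127 scoring under 0.2 were found in both replicates, 73 of 95 from 0.2 to 0.3, 45 of 68 from 0.3 to 0.4 and 6 of 15 from 0.4 to 0.5. The few of this width at higher scores were found in both in 3 of 4 cases from 0.5 to 0.6 and 1 of 1 from 0.6 to 0.7. Among members of at least 2000 bp the share was 74.5% of 94 from 0.3 to 0.4, 89.8% of 137 from 0.4 to 0.5, 98.9% of 90 from 0.5 to 0.6, and all 93 from 0.6 to 0.7. Few members this wide scored lower, and 6 of 7 from 0.2 to 0.3 and 1 of 1 under 0.2 were found in both.

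Width set the members found in both replicates apart from those found in neither more clearly than score did. The median score was 0.41 in those found in both, 0.32 in those found in neither and 0.29 in those found in 1. Scores ran from 0.0048 to 0.6996 in those found in both and from 0.0060 to 0.6974 in those found in neither. Among the 638 found in both, width followed score in a narrow band. The median width was 1897 bp (quartiles 1819 and 1927 bp) for scores under 0.2, 2006 bp (quartiles 1984 and 2052 bp) from 0.3 to 0.4, and 2155 bp (quartiles 2088 and 2258 bp) from 0.6 to 0.7. Spearman's rho of score and width over these regions was 0.752. Among the 306 found in neither, the median width was 1239 bp and rho was -0.181. Their median width was 1384 bp under a score of 0.2, 1195 bp from 0.3 to 0.4 and 1223 bp from 0.6 to 0.7. The 161 found in 1 replicate lay between in width, with a median of 1765 bp, and in rho, with 0.303. These are correlations across regions of 1 list, which share their libraries and are not independent replicates.

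**Figure D2:**
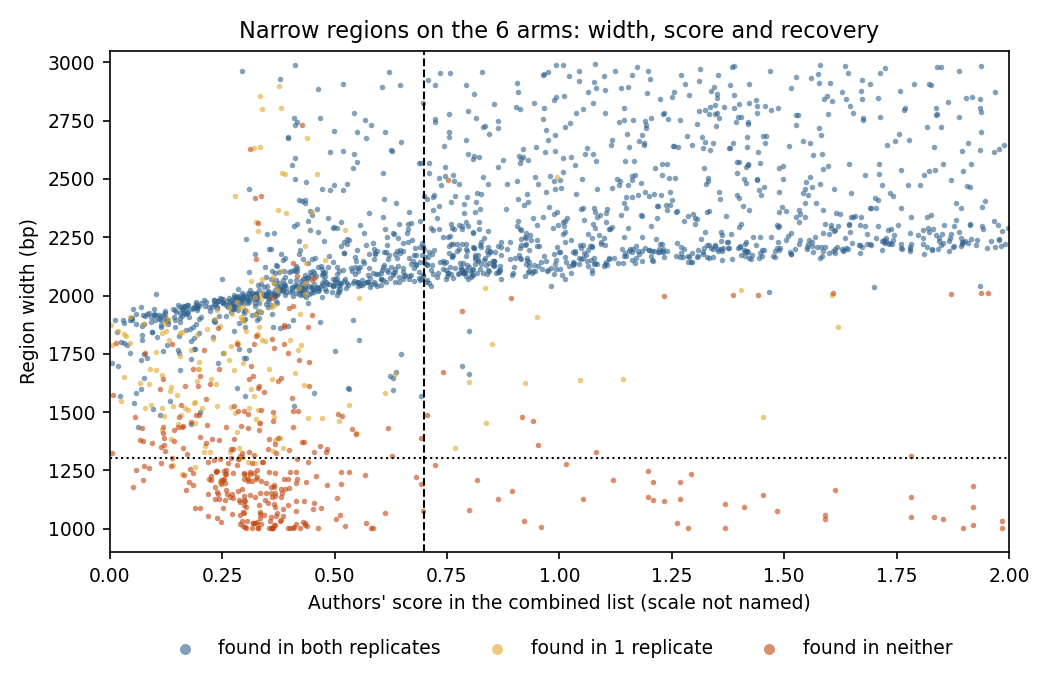
Width in bp against the authors' combined score for regions under 3 kb on the 6 arms, up to a score of 2, coloured by recovery in the replicate lists; the dashed line is the score limit of 0.7 and the dotted line the narrowest replicate region, 1303 bp. Regions found in both replicates follow a band whose width rises with score, while those found in neither spread below it and crowd under 1303 bp at scores from 0.2 to 0.4.

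The members missing from both replicates reached up to the score limit. The highest-scoring of them lay on 2L at 7737882 to 7738956 with a score of 0.70, on X at 451888 to 453276 with 0.69 and on 2R at 12430980 to 12432170 with 0.69. They were 1075, 1389 and 1191 bp wide. Of the 306, 183 (59.8%) were narrower than 1303 bp. The nearest enriched region of either replicate was a median of 1.93 kb away, within 500 bp for 59 of the 306 and beyond 5 kb for 87. The replicate lists hold 17 and 16 regions typed as depleted. Of the 4830 arm regions, 1 overlapped a depleted region of replicate 1 and 2 overlapped one of replicate 2, and these were all members.

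Where a member was recovered, the replicates placed it at nearly the same position. Of the 638 found in both, 637 matched 1 region in each replicate that overlapped no other combined region. Between the replicates the start moved by a median of 35 bp and the end likewise by 35 bp, against 19 bp at each end for 1394 narrow stronger regions. The median width of the matched regions was 1956 bp in replicate 1 and 1976 bp in replicate 2, against 2029 bp in the combined list. Only 1 of them reached 3 kb in a replicate list.

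Across these 637 members the scores of the replicates had a Spearman's rho of 0.787 and a Pearson's r of 0.793. The score difference between replicates had a median size of 0.08 and an SD of 0.12. Among 1394 narrow stronger regions r was 0.985, while the median size of the difference was 0.09 and its SD 0.14. The differences between replicates were thus of similar size in score units in the 2 classes, while the members span a much smaller range of scores. The rule set that range, since it kept combined scores above 0 and under 0.7, while narrow stronger regions had no upper limit. The median scores in replicates 1 and 2 were 0.44 and 0.45 for the members, against 1.52 and 1.55 for the narrow stronger regions. Why r was lower among the members was not tested. Replicate 1 gave the higher score in 299 of the 637. A score of at least 0.7 was reached by 46 members in replicate 1 and by 58 in replicate 2, and by 16 in both, with scores up to 1.22 in replicate 1 and 1.06 in replicate 2.

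**Figure D3:**
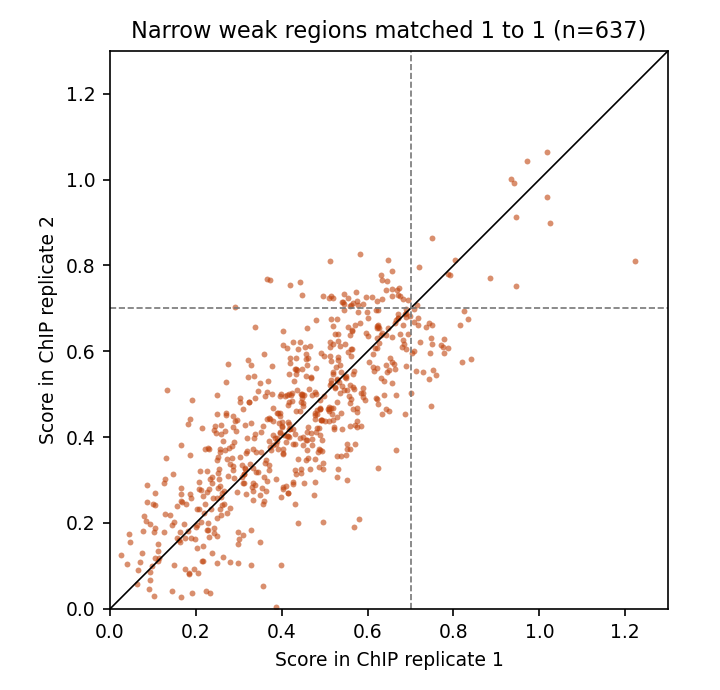
Score in ChIP replicate 1 (horizontal axis) against score in ChIP replicate 2 (vertical axis) for the 637 narrow weak regions matched 1 to 1, with the line of equality and dashed lines at 0.7. The points follow the line with a Pearson's r of 0.793, and 16 lie at or above 0.7 in both replicates.

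Single members showed this range. The highest-scoring member found in both replicates, on X at 7994932 to 7997130, scored 0.72 in replicate 1 and 0.71 in replicate 2, both above the limit that its combined score of 0.6996 just missed. The next, on 3R at 18882140 to 18884284, scored 0.67 and 0.75, and the third, on 3L at 8946024 to 8948452, scored 0.81 and 0.66. These 2 regions fell on opposite sides of 0.7 in the 2 replicates. At the other end, the member on 3L at 4185774 to 4187482 scored 0.0048 in the combined list and scored 0.09 in each replicate. On X, the member at 9198310 to 9200202 had 0.01 as its combined value, and scored 0.10 in replicate 1 but 0.03 in replicate 2. On 3R, the member at 21114750 to 21116594 scored 0.02 in the combined list, and 0.07 and 0.11 in the replicates. These regions were picked among members found in both replicates, which fixes that their replicate scores are above 0. The 2 lowest-scoring members of all, at 0.0027 and 0.0045, were found in 1 replicate each.

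Narrow weak regions of one replicate list fell into several classes in the other lists. Of the 887 narrow weak regions of replicate 1, 627 (70.7%) overlapped a narrow weak region of replicate 2, 85 a narrow stronger one and 74 a wide one, and 101 (11.4%) overlapped none. Of the 847 of replicate 2, 627 (74.0%) overlapped a narrow weak region of replicate 1, 49 a narrow stronger one and 39 a wide one, and 132 (15.6%) overlapped none. The combined list held almost every one of them in some form, since 27 of 887 (3.04%) and 24 of 847 (2.83%) overlapped no combined region. It held 658 (74.2%) and 665 (78.5%) as narrow weak regions, and 168 (18.9%) and 147 (17.4%) lay in combined regions of at least 3 kb. The median width of those wide combined regions was 6.085 kb for replicate 1 and 5.555 kb for replicate 2. Some regions that stood alone as narrow and weak in a replicate list thus lay in a wider region in the combined list. The same shares were not computed for the other regions of the replicate lists. Whether any of them is particular to narrow weak regions is therefore not known.

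Many members lay close to a stronger region. Distances were measured from edge to edge to the nearest other arm region scoring at least 0.7. The same limit chose the members, so a stronger region was measured to another stronger one, while a weak region lay between them. Distances of weak and of stronger classes are therefore not measured alike. The median was 3.46 kb for the members, with quartiles of 1.02 and 10.2 kb. It was 6.26 kb for narrow stronger regions, 1.44 kb for wide weak regions and 3.47 kb for wide stronger regions. Within 5 kb of a stronger region were 651 members (58.9%), against 55.5% of all arm regions and 45.1% of the narrow stronger regions. The share of members was therefore close to that of enriched regions at large, and the narrow stronger regions were the ones that stood farther away. Within 1 kb lay 273 members (24.7%), against 20.3% of all arm regions and 14.3% of the narrow stronger regions. Beyond 20 kb lay 137 members (12.4%), against 13.6% of all arm regions and 19.9% of the narrow stronger regions. The nearness depended on recovery. Of the 638 members found in both replicates, 128 lay within 1 kb and 54.1% within 5 kb, the latter just under the 55.5% of all arm regions. Their median distance was 4.26 kb, against 2.35 kb for the 306 members found in neither.

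Narrow weak regions also lay closer to a stronger region than narrow stronger ones in each replicate list, with both kinds of region taken from that list. The median distance was 3.30 kb in replicate 1 and 3.49 kb in replicate 2 for narrow weak regions, a mean of 3.40 ± 0.131 kb, against 4.88 ± 0.287 kb for narrow stronger regions (SD, n = 2). Within 5 kb of a stronger region were 61.1% ± 0.942 of the narrow weak regions and 50.5% ± 1.48 of the narrow stronger regions (SD, n = 2). Wide stronger regions had a median of 3.16 ± 0.0972 kb and 62.1% ± 0.501 within 5 kb (SD, n = 2). Wide weak regions, 53 in replicate 1 and 46 in replicate 2, had 1.94 ± 0.680 kb and 80.9% ± 2.38 (SD, n = 2). Among the other classes, only the narrow stronger regions thus had a longer median distance than the narrow weak ones. Within a list, the median of the narrow weak regions minus that of the narrow stronger ones was -1.38 kb in replicate 1 and -1.60 kb in replicate 2. The shares within 5 kb differed by 10.23 and 10.998 percentage points. Both gaps exceeded the replicate SD. An exact sign-flip test over 2 lists cannot give a two-sided p below 0.5, so no test was made.

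A smaller share of the members near a stronger region than of the isolated ones was found in the replicates. Found in both replicates were 46.9% of the 273 members within 1 kb, 57.4% of 378 at 1 to 5 kb, 62.8% of 317 at 5 to 20 kb and 68.6% of 137 beyond 20 kb. Among the 732 members of at least 1700 bp the shares were 74.3%, 83.3%, 87.2% and 94.8%. Each replicate showed the low value near stronger regions: replicate 1 held 84.8% of these wider members within 1 kb and 95.9% beyond 20 kb, and replicate 2 held 81.9% and 97.9%. Among narrow stronger regions of at least 1700 bp the shares were 98.1%, 98.1%, 98.8% and 99.3% over the same distances, a smaller range. The width classes and distance limits here were chosen after the values were seen. Across the 1105 members, Spearman's rho with distance was -0.060 for score and 0.005 for width. The part of at least 1700 bp still rose somewhat with distance. It was 171 of 273 members within 1 kb, 245 of 378 at 1 to 5 kb, 219 of 317 at 5 to 20 kb and 97 of 137 beyond.

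**Figure D4:**
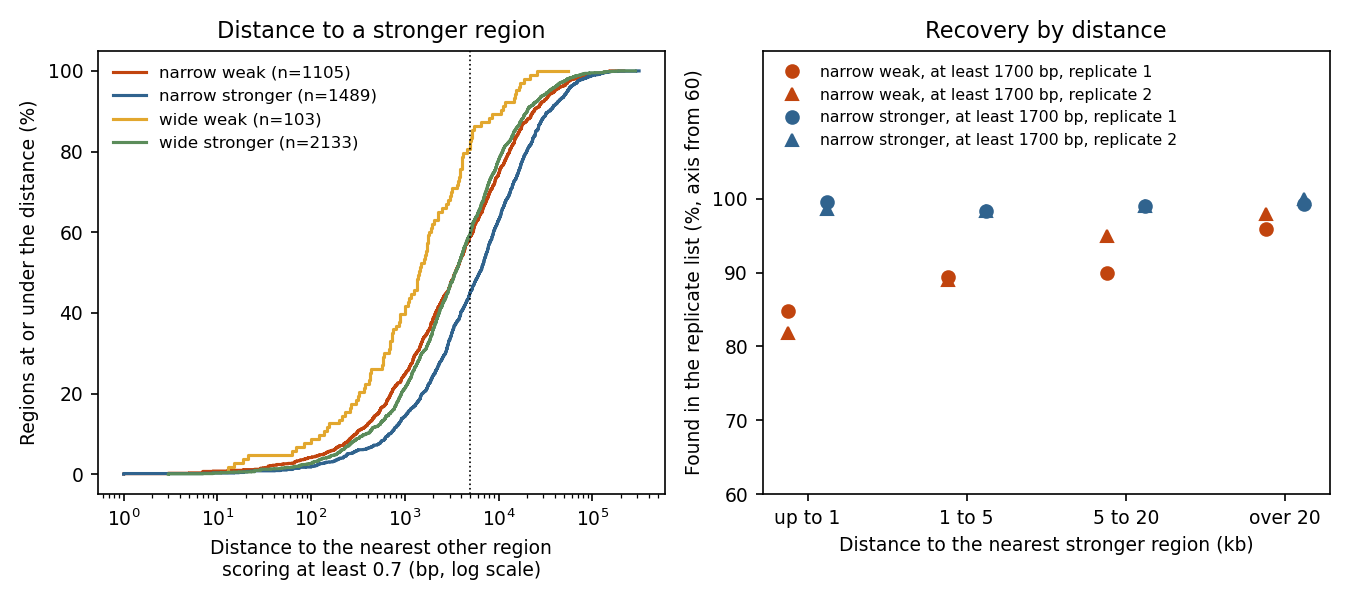
Left, cumulative percent of arm regions in each class by distance in bp (log scale) to the nearest other region scoring at least 0.7, with a dotted line at 5 kb; right, percent found in each replicate list by distance for narrow weak and narrow stronger regions of at least 1700 bp, on an axis that starts at 60%. The narrow weak curve runs left of the narrow stronger one, with medians of 3.46 and 6.26 kb, and narrow weak recovery is lowest within 1 kb.

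Of all members, the 3 nearest to a stronger region lay 1, 3 and 5 bp from it, and each was found in 1 replicate. The members named next are the nearest and the farthest among those found in both. On 2L, the member at 22257540 to 22259604 ended 7 bp before a stronger region of 3.70 kb that scored 2.73, and scored 0.39 itself. On 3R, the member at 11083390 to 11085710 ended 13 bp before a region of 19.3 kb that scored 1.498. On 2L, the member at 18606024 to 18608186 began 19 bp after a region of 2.22 kb that scored 1.67. The weak and the stronger region of each pair were thus listed apart in the combined list even where they almost touched. The farthest member of all, 217 kb from a stronger region, was found in 1 replicate. The farthest found in both were a pair on 3L, at 13658824 to 13660822 and 13661880 to 13663908, which lay 150 and 153 kb away and 1.06 kb from each other. Their scores were 0.38 and 0.46 in replicate 1, and 0.38 and 0.59 in replicate 2. The next, on 2L at 17962498 to 17964492, lay 141 kb from a stronger region and scored 0.28 in replicate 1 and 0.34 in replicate 2.

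The regions next to a member along the arm were of each class about as often as the classes occur. Of 2209 neighbours, counted on each side of every member, 24.3% were narrow weak, 30.8% narrow stronger, 1.99% wide weak and 43.0% wide stronger. Over all 4830 arm regions these shares were 22.9%, 30.8%, 2.13% and 44.2%. Stronger regions flanked 608 members on both sides (55.0%). The 1105 members formed 837 runs of adjacent members, 633 of them of a single region. The counts of flanks and runs were not made for all arm regions, so they are not read as particular to the members. The nearest stronger region was at least 3 kb wide for 691 members (62.5%), against 58.9% of the 3622 stronger regions, and its median score was 1.74, against 1.67 for all stronger regions. By class, the neighbours of the members were thus near the mix of all arm regions. In width and score, the nearest stronger regions were near the stronger regions as a whole. The width and score of the nearest stronger region are not given for other arm regions.

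The arms differed in their share of narrow weak regions. In the combined list the members numbered 199 on 2L, 239 on 2R, 245 on 3L, 237 on 3R, 175 on X and 10 on chromosome 4. They were 25.4% of the regions of 3L and 19.9% of those of X, the highest and the lowest of the 5 large arms, and 22.7%, 23.5% and 22.8% of those of 2L, 2R and 3R. In the replicate lists the share was 21.6% ± 0.984 on 3L, 19.3% ± 1.27 on 2R, 19.0% ± 0.793 on 2L, 17.2% ± 0.458 on 3R and 15.9% ± 0.887 on X (SD, n = 2). Each of the 3 lists thus had 3L highest and X lowest among the large arms, and the gap between them exceeded the replicate SD. The intervals of mean ± SD overlapped between 3L and 2R and between 2R and 2L. Chromosome 4 had 4 narrow weak regions in replicate 1 and 5 in replicate 2, or 9.02% ± 1.67 of its regions (SD, n = 2), against 18.5% in the combined list. It rests on few regions. Of its 10 members, 2 were found in both replicates, against 54.9% of the members of X and 60.3% of those of 2R.

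**Figure D5:**
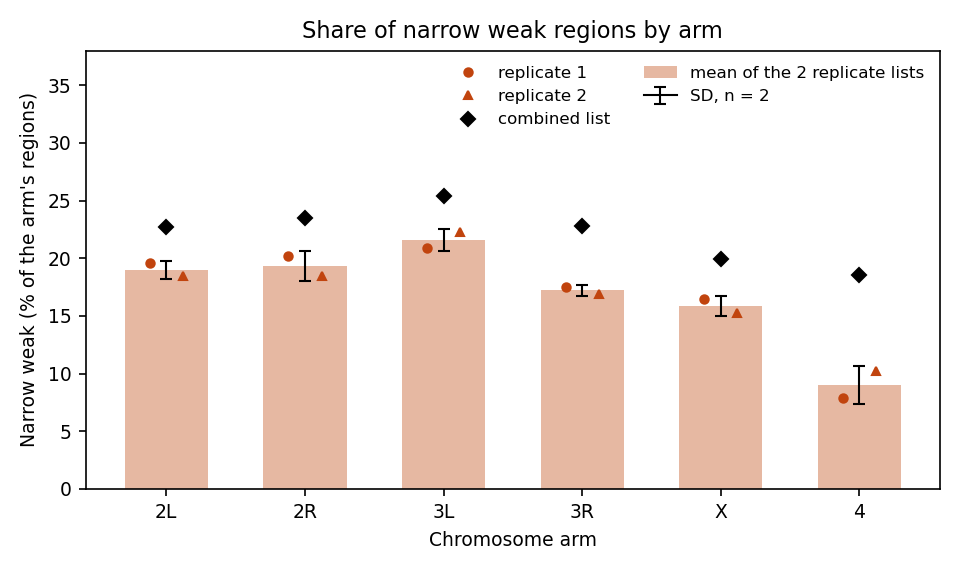
Narrow weak regions as a percent of all enriched regions of each chromosome arm; bars and error bars are the mean and SD of the 2 replicate lists, circles and triangles the single replicates and diamonds the combined list. The share is highest on 3L and lowest on X among the large arms in all 3 lists, and chromosome 4 rests on 4 and 5 regions in the replicates.

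Per Mb, the combined list held 11.3 members on 2R, 9.98 on 3L, 8.65 on 2L, 8.49 on 3R, 7.80 on X and 7.40 on chromosome 4. In the replicates the values were 9.10 ± 0.702 on 2R, 8.21 ± 0.375 on 3L, 6.84 ± 0.338 on 2L, 6.31 ± 0.203 on 3R, 6.02 ± 0.441 on X and 3.33 ± 0.523 on chromosome 4 (SD, n = 2). In this order, the intervals of mean ± SD of neighbouring arms overlapped except between 3L and 2L and between X and chromosome 4. Stronger regions per Mb numbered 37.7 ± 0.301 on 2R, 31.8 ± 0.252 on X and 30.0 ± 0.0507 on 3R (SD, n = 2). They numbered 29.3 ± 0.288 on 3L, 28.4 ± 0.154 on 2L and 33.7 ± 1.57 on chromosome 4 (SD, n = 2). The arm with the most of them, 2R, had the second highest share of narrow weak regions in the replicate lists. Stronger regions are part of the total from which the share is taken, and how their density bears on it was not tested.

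Along the arms, a median of 9 members (quartiles 6 and 12) fell in each of 118 windows of 1 Mb, beside a median of 31 stronger regions. Every window held some. The number of members correlated with the number of stronger regions across windows (Pearson's r was 0.401 for the combined list, 0.449 for replicate 1 and 0.394 for replicate 2). The windows share their libraries, and their mappable length was not measured. The fewest members, 2, lay in 3R 12 to 13 Mb, where the replicates had 2 and 1 narrow weak regions beside 34 stronger regions in the combined list. Among the windows rich in narrow weak regions in all 3 lists was 2L 0 to 1 Mb with 18 members, and 17 and 13 in replicates 1 and 2. Others were 2R 8 to 9 Mb (17 members, and 17 and 15), 3L 16 to 17 Mb (17, and 14 and 18) and 2R 20 to 21 Mb (16, and 17 and 15). These windows were picked after their values were seen.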

How the data were processed

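Per the labels' protocols, Kc167 cells were fixed with 1.8% formaldehyde for 10 min, sonicated, and the chromatin was incubated with the antibody for 15 h. The submitters' processing notes name Bowtie 0.12.7. The authors deposited regions of significant enrichment or depletion with a score for each, in 1 list for each ChIP replicate and 1 list for the replicate set, with positions on FlyBase release 5 as stated in the headers. The sources used here do not give how regions were called, against what control and threshold, or how the combined list was made.

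Enriched regions were used as deposited, with an overlap of at least 1 bp. A match was 1 to 1 when each region overlapped a single region of the other list. Windows were full 1 Mb windows. All results are counts, shares, medians and descriptive correlations with no test, as the score and width chose the members and there is 1 group of 2 replicates. Overlaps and distances were tested on simulated data. The members, and the rules for naming them (highest and lowest score, nearest and farthest from a stronger region, all among members found in both replicates, highest in neither replicate, and next to the score limit, 3 each), were chosen with earlier results of these data known. The planned count of start sites was not run, because the gene table is of release 6. Alternatives were other limits of score, width and distance, reciprocal overlap, each replicate alone, merging, and inclusion of depleted regions, scaffolds and U. Python 3.11.15, numpy 2.4.6, pandas 2.3.3 and matplotlib 3.10.9 were used.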

Additional observations from a re-analysis of the deposited data

How the results depend on the processing

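No paired analysis was possible because the replicate numbers pair the ChIP with the input libraries, and no region list of the input libraries is used here. Differences between classes of regions are given within each replicate list. The number of members, 1105, stayed between 847 and 1423 under every alternative run except a width limit of 2000 bp, which left 683. The share found in both replicates, 57.7%, was 50.4% with a score limit of 0.5, 65.6% with a limit of 1, 37.5% with a width limit of 2000 bp and 70.0% without regions under 1303 bp, an alternative chosen after seeing the data. Reciprocal overlap of 50% gave 57.6%, and counting depleted replicate regions gave 58.0%. When only 1 replicate was asked for, the share was 63.9% to 66.2%. The median distance to a stronger region, 3.46 kb, was 4.22 kb when stronger meant a score of at least 1 and 7.87 kb at 1.5, 4.26 kb for members found in both replicates, 4.61 kb after merging of regions closer than 500 bp, 3.68 kb without regions under 1303 bp, and 3.30 to 3.49 kb in the single replicate lists. The share within 5 kb, 58.9%, was 54.0% when stronger meant a score of at least 1, 40.2% at 1.5, 54.1% for members found in both replicates, 52.5% after merging (added after seeing the data), 38.4% at a limit of 2 kb, 74.5% at 10 kb, and 60.4 to 61.8% in the single replicate lists. The cause of these shifts was not tested, beyond the fewer or other regions that each limit keeps. Sequencing depth is unknown, so how far it limits the recovery of weak regions was not measured.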

Other observations

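The longest run of adjacent members, found after the values were seen, lay on 3L at 7808236 to 7837524. It held 13 members within 29.3 kb, with a median gap of 0.679 kb between them, while no other run was longer than 6. Their combined scores were between 0.18 and 0.43 and their widths between 1047 and 2213 bp, and 6 were narrower than 1303 bp. In each replicate list the same stretch held 2 enriched regions. Of the 13 members, 4 were found in 1 replicate, 9 in neither and 0 in both. This run made 3L 7 to 8 Mb the window with the most members in the combined list, 20, where each replicate list had 7 narrow weak regions. The run of 6, on 3L at 22295968 to 22388398, was spread over 92.4 kb, and of its members 2 were found in 1 replicate and 4 in neither. What sets these stretches apart was not tested.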
